A study of Mus musculus with 6 samples.

Results

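The 36 genes described here mark Kupffer cells, the resident macrophages of the liver, and macrophages and leukocytes more widely. They were listed by name, with earlier results of these data known, and were found by symbol among the 48353 genes of the deposited files. Sorted by role, 7 are genes of resident Kupffer cells, 13 are general macrophage genes, 4 belong to MHC class II antigen presentation, 2 are monocyte genes and 10 are general leukocyte genes. The series compared isolated hepatocytes, the parenchymal cells that make up most of the liver, from mice with and without Bim (symbol Bcl2l11), a cell-death gene of the BCL-2 family.

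The knock-out mice carried loxP-flanked Bim alleles and Alb-Cre, a recombinase under the albumin promoter, so expressed in hepatocytes and not in macrophages. The wild-type group is labelled so without further detail. Both groups were C57BL/6, the protocol speaks of males, and the cells were freed by collagenase perfusion. The protocol gives 2 diets, regular chow or a high-fat diet begun at 8 to 10 weeks of age and kept for 14 to 20 weeks, and which of them each sample received is not given in the labels. There were 3 libraries of polyadenylated RNA in each group. Whether each library came from its own animal is not in the labels, so the p-values rest on a spread between samples that may be technical.

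Kupffer cells line the sinusoids of the liver, where they clear bacteria, dying cells and aged red cells from portal blood through scavenger, complement and lectin receptors. They arise before birth and depend on the growth factor receptor CSF1R. The factor PU.1, encoded by Spi1, binds a purine-rich GAGGAA core at many genes of macrophages. A hepatocyte preparation made by perfusion can carry some of these cells along. In such bulk RNA, fewer cells of a type and less RNA per cell cannot be told apart.

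To show the start regions of members that the results turn on, 250 bases before the start of 4 of them are printed, from RefSeq on GRCm38.p6, the same build as the files. Of these, 3 hold the GAGGAA core, and the fourth, H2-Eb1, holds CTGATTGG, a form of the Y box found before class II genes. Only windows with a match are printed, so nothing is read from that count. Clec4f, Timd4, Mpeg1 and Lyz2 were searched as well, held no GAGGAA and are not printed. The windows are Marco at chr1:120505025-120505274 (minus strand), Cd5l at chr3:87357631-87357880 (plus strand), C1qb at chr4:136886201-136886450 (minus strand) and H2-Eb1 at chr17:34305617-34305866 (plus strand). Each reads 5′ to 3′ along its gene, with the match in capitals.
Marco: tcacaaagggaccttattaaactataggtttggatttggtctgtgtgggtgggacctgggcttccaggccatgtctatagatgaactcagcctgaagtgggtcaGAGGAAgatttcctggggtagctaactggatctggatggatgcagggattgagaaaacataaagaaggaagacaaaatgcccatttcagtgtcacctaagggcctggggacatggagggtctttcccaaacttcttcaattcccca
Cd5l: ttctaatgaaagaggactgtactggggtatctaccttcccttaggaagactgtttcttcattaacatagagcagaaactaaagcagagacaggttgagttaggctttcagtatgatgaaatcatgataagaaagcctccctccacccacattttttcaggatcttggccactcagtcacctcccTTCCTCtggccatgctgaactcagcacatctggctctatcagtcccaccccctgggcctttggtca
C1qb: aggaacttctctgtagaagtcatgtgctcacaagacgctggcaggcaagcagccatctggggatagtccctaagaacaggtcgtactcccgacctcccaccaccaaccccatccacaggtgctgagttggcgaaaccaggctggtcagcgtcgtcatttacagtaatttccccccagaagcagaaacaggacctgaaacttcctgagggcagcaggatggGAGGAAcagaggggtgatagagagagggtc
H2-Eb1: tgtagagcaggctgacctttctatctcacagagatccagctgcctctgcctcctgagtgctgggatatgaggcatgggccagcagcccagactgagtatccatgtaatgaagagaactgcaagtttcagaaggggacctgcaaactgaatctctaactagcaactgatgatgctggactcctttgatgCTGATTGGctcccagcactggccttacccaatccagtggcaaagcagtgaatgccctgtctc

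The match began at position -146 in Marco, -66 in Cd5l, -30 in C1qb and -62 in H2-Eb1, counting -1 as the base just before the start. In Cd5l it lies on the opposite strand and so reads TTCCTC. Both strands were searched for GAGGAA and for CTGATTGG, and neither motif contains the other. Of the 36 members, 26 were in the promoter table, with 30 windows of 250 bases. GAGGAA stood in 13 of the 30 windows (43.3%), against 7639 of 32851 windows of all genes (23.3%). Those 13 belong to Vsig4, Cd5l, Marco, C1qb, C1qc, Cd68, Mrc1, Fcgr1, Ctss, Itgam, Ptprc, Aif1 and Laptm5. CTGATTGG stood in 2 of the 30 (6.67%), before H2-Aa and H2-Eb1, against 1258 of all windows (3.83%). A match describes letters in a window and does not show a bound site. Adgre1, Csf1r, C1qa, Msr1, Cd14, H2-Ab1, Cd74, Itgb2, Spi1 and Tyrobp were not in the table.

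The 6 libraries held 25335211 to 31130519 estimated reads, and 10486 to 11255 genes per library were above 0. Bcl2l11 was listed at 0 reads in all 3 knock-out libraries and in the library labelled wild-type 1, and had 680 and 478 reads in wild-type 2 and 3. The target gene thus does not set wild-type 1 apart from the knock-out libraries, and "wild-type 1" is used here only as that library's label. Bcl2l11 lies at a locus with 8 transcripts, where a listed 0 need not be a true absence. Where a locus had more than 100 reads in the median, an exact 0 made up 18.02% of library values with 2 or more annotated transcripts and 0.0156% with 1. Genes with any 0 are therefore given as reads per library, with no mean or fold.

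Most of the members had their highest value in 1 library, the one labelled wild-type 1. Of the 36 genes, 29 had reads in at least 1 library, and 26 of these were highest there, against 27.0% of the 15661 genes of the series above 0 in any library. Summed over all members, it held 7998 reads per 1000000 estimated reads (RPM), against 499.8, 215.3 and 527.9 in knock-out 1, 2 and 3 and 315 and 560 in wild-type 2 and 3. The sum was 0.80% of all its reads and 0.0215% to 0.056% of those of the others. The library labelled wild-type 1 thus lay above all others, and the knock-out libraries lay on both sides of wild-type 2. Outside wild-type 1 the sum varied in part with Lcp1, at a locus with 11 transcripts. Lcp1 had 6392, 0 and 5126 reads in the knock-outs, against 0 and 6138 in wild-type 2 and 3. The 10 members above 0 in all 6 libraries summed to 270, 202 and 325 RPM in the knock-outs, against 4665.5, 284 and 289 in wild-type. Their group values were 266 ± 61.7 RPM for knock-out against 1746 ± 2528 for wild-type (SD, n = 3 each). That wild-type spread comes from 1 library.

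**Figure D1:**
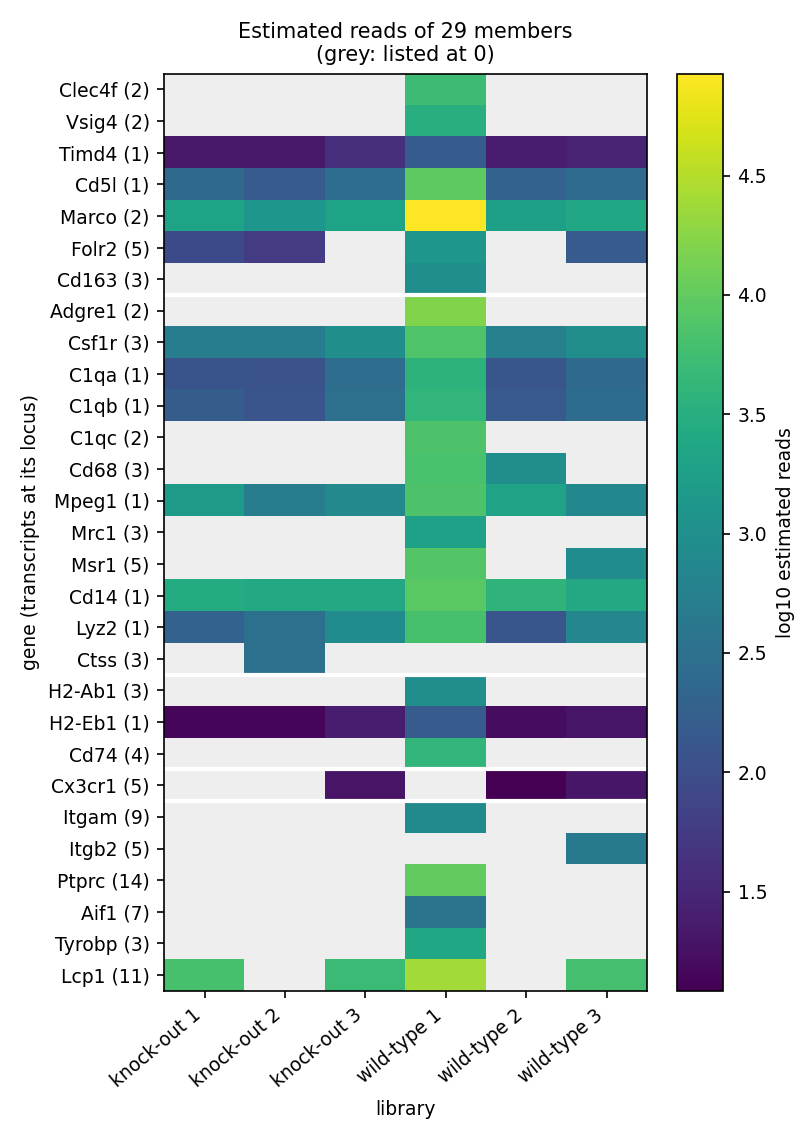
Estimated reads (log10 colour scale) of the 29 members with reads, 1 row a gene with the number of transcripts at its locus, 1 column a library; grey cells are listed at 0 and white lines part the roles. Reads were listed for 26 members in wild-type 1 and for 12 to 15 in each of the other libraries.

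The summed reads of the resident Kupffer cell genes came to 3704 RPM in wild-type 1 and to 54.4 to 99.0 in the other libraries. Marco made most of that sum: the other 6 genes came to 711 RPM in wild-type 1 and to 7.13 to 15.9 elsewhere. The general macrophage genes summed to 2732 RPM and the leukocyte genes to 1377 RPM in wild-type 1. Marco, a scavenger receptor for bacteria and particles, measured 52.0, 33.4 and 56.3 RPKM (reads scaled to transcript length and library size) in knock-out 1, 2 and 3. Its levels in wild-type 1, 2 and 3 were 2097, 44.4 and 59.1 RPKM. Wild-type 1 was 35.5-fold above the next library, the largest such ratio of the 6920 genes above 0 in all 6 libraries, while the other wild-type values lay within or just above the knock-out range. Cd5l, a secreted protein of tissue macrophages that binds to serum IgM, came next of the 6920, at 29.3-fold. It measured 6.36, 3.82 and 7.50 RPKM in the knock-outs, against 219.9, 4.44 and 6.41 in wild-type, with wild-type 2 and 3 inside the knock-out range.

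Timd4, a receptor for the phosphatidylserine of dying cells, was a low member throughout. It measured 0.500, 0.511 and 0.957 RPKM in the knock-outs, against 3.51, 0.504 and 0.628 in wild-type. That rests on 22 to 40 reads in 5 libraries and 160 in wild-type 1, a 3.67-fold gap to the next library. The precision of so few reads is low.

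The other 4 genes of this role had zeros. Clec4f, a galactose-binding lectin used as a defining Kupffer cell marker in mice, had 5248 reads in wild-type 1 and was listed at 0 in the other 5. The same held for Vsig4, a receptor for complement C3 fragments, with 3062 reads, and for Cd163, the scavenger receptor for haemoglobin bound to haptoglobin, with 984. Folr2, a folate receptor, had 88, 58 and 0 reads in the knock-outs, against 1264, 0 and 152 in wild-type. All 4 lie at loci with 2 to 5 transcripts, so their listed zeros may be estimates that were not made. Timd4 and Cd5l, at loci with 1 transcript, were above 0 in every library.

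**Figure D2:**
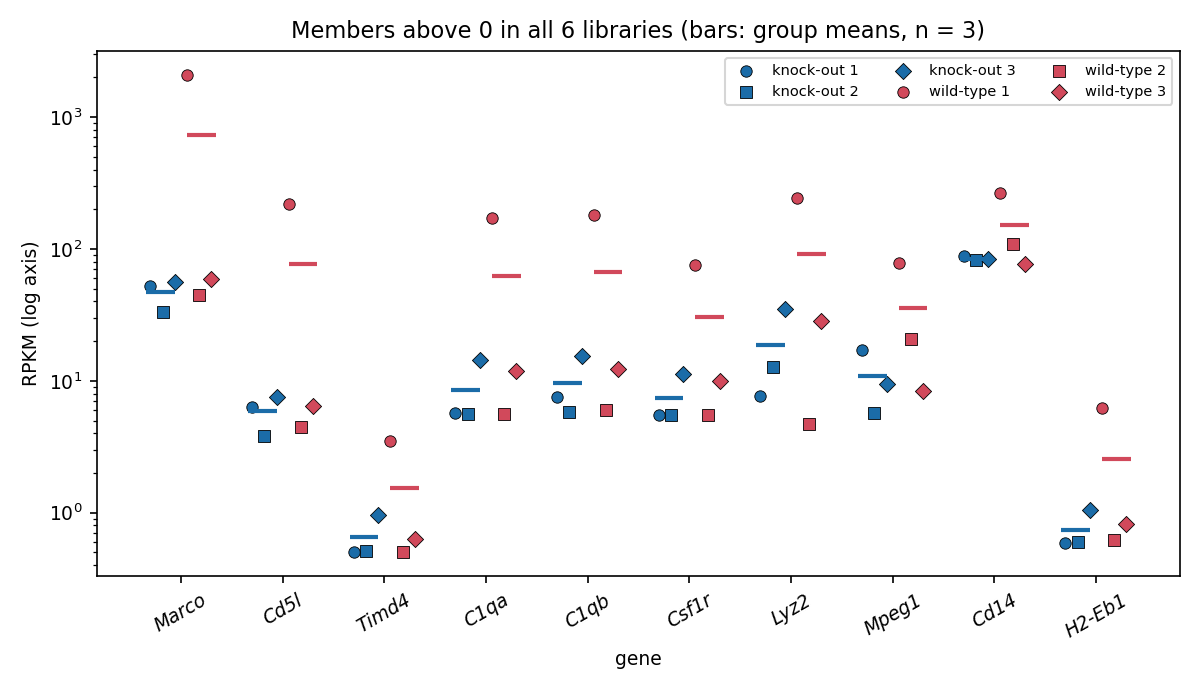
RPKM (log axis) of the 10 members above 0 in all 6 libraries, 1 point a library (blue knock-out, red wild-type, shape by replicate) with bars at the group means of 3. For all 10 genes wild-type 1 is the top point, and the remaining blue and red points overlap.

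Among the general macrophage genes were the 3 chains of C1q, the recognition protein of the classical complement pathway, which macrophages secrete. C1qa measured 5.70, 5.63 and 14.4 RPKM in the knock-outs, against 170.9, 5.62 and 11.9 in wild-type. C1qb measured 7.54, 5.75 and 15.4 in the knock-outs, against 180.6, 5.96 and 12.3 in wild-type. Wild-type 1 was 11.9-fold above the next library for C1qa and 11.7-fold for C1qb, and that next library was knock-out 3 for both. The ratio of C1qb to C1qa in RPKM was 1.06 in wild-type 1 and 1.02 to 1.32 in the others. C1qc, at a locus with 2 transcripts, had 7218 reads in wild-type 1 and was listed at 0 elsewhere, although its partner chains were read in all 6.

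Csf1r, the receptor for the macrophage growth factors CSF1 and IL-34, measured 5.51, 5.52 and 11.2 RPKM in the knock-outs, against 76.2, 5.48 and 9.99 in wild-type. Its gap between wild-type 1 and the next library was 6.82-fold. Csf1r stood at 0.45 of the C1qa level in wild-type 1 and at 0.78 to 0.98 of it in the other libraries. Lyz2, the lysozyme of myeloid cells, measured 7.65, 12.8 and 35.3 RPKM in the knock-outs, against 242.7, 4.69 and 28.5 in wild-type. Wild-type 1 was again highest, 6.88-fold above knock-out 3, and the other 5 spread more widely for Lyz2 than for the remaining 9 fully read members. Lyz2 and its near copy Lyz1 may share reads, so its level is uncertain.

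Cd14, a co-receptor for bacterial lipopolysaccharide that hepatocytes also make, showed the smallest gap of the 10. It measured 87.97, 81.9 and 83.3 RPKM in the knock-outs, against 265.7, 109.9 and 77.1 in wild-type, so that wild-type 1 was 2.42-fold above wild-type 2. Cd14 had the highest RPKM of the 10 in each library but wild-type 1, where Marco stood above it. Mpeg1, the pore-forming perforin-2 of phagocytes, measured 17.2, 5.73 and 9.42 RPKM in the knock-outs, against 77.7, 20.8 and 8.40 in wild-type. Its gap was 3.74-fold, and the library next to wild-type 1 was wild-type 2, as for Cd14.

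Adgre1, which encodes the F4/80 antigen by which mouse macrophages are commonly identified, had 15872 reads in wild-type 1 and was listed at 0 in the other 5. Mrc1, the mannose receptor, had 1948 reads there and 0 elsewhere. Cd68, a lysosomal glycoprotein of phagocytes, had 6732 reads in wild-type 1, 966 in wild-type 2 and 0 in the rest, so the 3 knock-out libraries were all at 0. Msr1, a class A scavenger receptor, had 7852 in wild-type 1, 890 in wild-type 3 and 0 in the rest. Ctss, the lysosomal protease cathepsin S, had 319 reads in knock-out 2 and 0 in every other library, wild-type 1 included. Fcgr1, the high-affinity receptor for IgG, was listed at 0 in all 6. All of them lie at loci with 2 to 5 transcripts.

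Of the class II genes, H2-Eb1, the beta chain of the E molecule, was the only one read throughout. It measured 0.584, 0.597 and 1.05 RPKM in the knock-outs, against 6.21, 0.617 and 0.823 in wild-type, from 14 to 24 reads in 5 libraries and 154 in wild-type 1. The gap was 5.89-fold, and the rest of the wild-type group lay inside the knock-out range. H2-Ab1, the beta chain of the A molecule, had 958 reads in wild-type 1 and 0 elsewhere. Cd74, the invariant chain that guides class II molecules to the endosome, had 4120 there and 0 elsewhere. H2-Aa, the partner chain of H2-Ab1, was listed at 0 in all 6 libraries.

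Neither monocyte gene had reads in wild-type 1. Ccr2, the chemokine receptor by which monocytes leave the marrow, was listed at 0 in all 6 libraries. Cx3cr1, the fractalkine receptor, had 19.5 reads in knock-out 3, 12.1 in wild-type 2 and 20.8 in wild-type 3 and 0 in the other 3. Its locus is shared with 3 other genes, Csrnp1, Gorasp1 and Xirp1, which makes the reads assigned to Cx3cr1 uncertain.

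The leukocyte genes lie at loci with 3 to 14 transcripts, and none was read in all 6 libraries. In wild-type 1 alone, Ptprc, the CD45 phosphatase of nucleated blood cells, had 10202 reads and Tyrobp, the signalling adaptor DAP12, had 2394. Itgam, the integrin chain CD11b, had 802 and Aif1, the actin-binding protein IBA1, had 364, also there alone. Lcp1, an actin-bundling protein of leukocytes, had 6392, 0 and 5126 reads in the knock-outs, against 25140, 0 and 6138 in wild-type, so it was read in both groups and highest in wild-type 1. Itgb2, the beta chain that pairs with CD11b, had 428 reads in wild-type 3 and 0 elsewhere, so in wild-type 1 the CD11b chain was listed without its partner. Spi1, the PU.1 gene, Fcer1g, the shared gamma chain of Fc receptors, Laptm5, a lysosomal protein of blood cells, and Coro1a, an actin regulator, were listed at 0 in all 6 libraries.

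Listed zeros thus shape how the members appear. The 8 members at loci with 1 transcript had 0 zeros among their 48 library values, and the 28 at larger loci had 127 among 168. Among the latter, the 21 with any reads had 82 zeros in 105 values outside wild-type 1 and 3 in wild-type 1. Altogether 12 members were above 0 in wild-type 1 alone, against 4.58% of the 15661 genes above 0 in any library. These 12 are among the 21, and count as read through that library alone. Their zeros elsewhere are thus fixed, so nothing is read from the contrast of 82 with 3. Whether a member that was low in a library was more often given a 0 was not tested.

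Across the 10 members above 0 in all 6 libraries, all 10 were over 2-fold above the next library in wild-type 1, and 7 were over 4-fold. In the same library 29.9% of the 6920 genes so read were highest, 4.02% were over 2-fold above the next and 2.14% over 4-fold. The median of the 10 ratios was 6.85, from 2.42 for Cd14 to 35.5 for Marco. Set against the median of the other 5 libraries, the members' ratios ran from 3.19 to 40.3 with a median of 16.4, while the median over all 6920 genes was 1.04. None of these ratios has a replicate, since they describe 1 library.

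The members did not scale by 1 common factor in wild-type 1. Marco took 37.4% of all member reads there, against 14.4% to 21.4% in the rest, a share of reads that is not corrected for length. In RPKM, Marco stood at 12.3 times C1qa in wild-type 1 and at 3.91 to 9.12 times C1qa elsewhere. Cd5l kept a closer ratio to Marco, 0.10 in wild-type 1 and 0.10 to 0.13 elsewhere. Timd4 stood at 0.02 of Cd5l in wild-type 1 and at 0.08 to 0.13 in the others, so its distance below Cd5l was wider there. Cd14 stood at 3.49 times Csf1r in wild-type 1 and at 7.46 to 20.1 times Csf1r in the others.

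**Figure D3:**
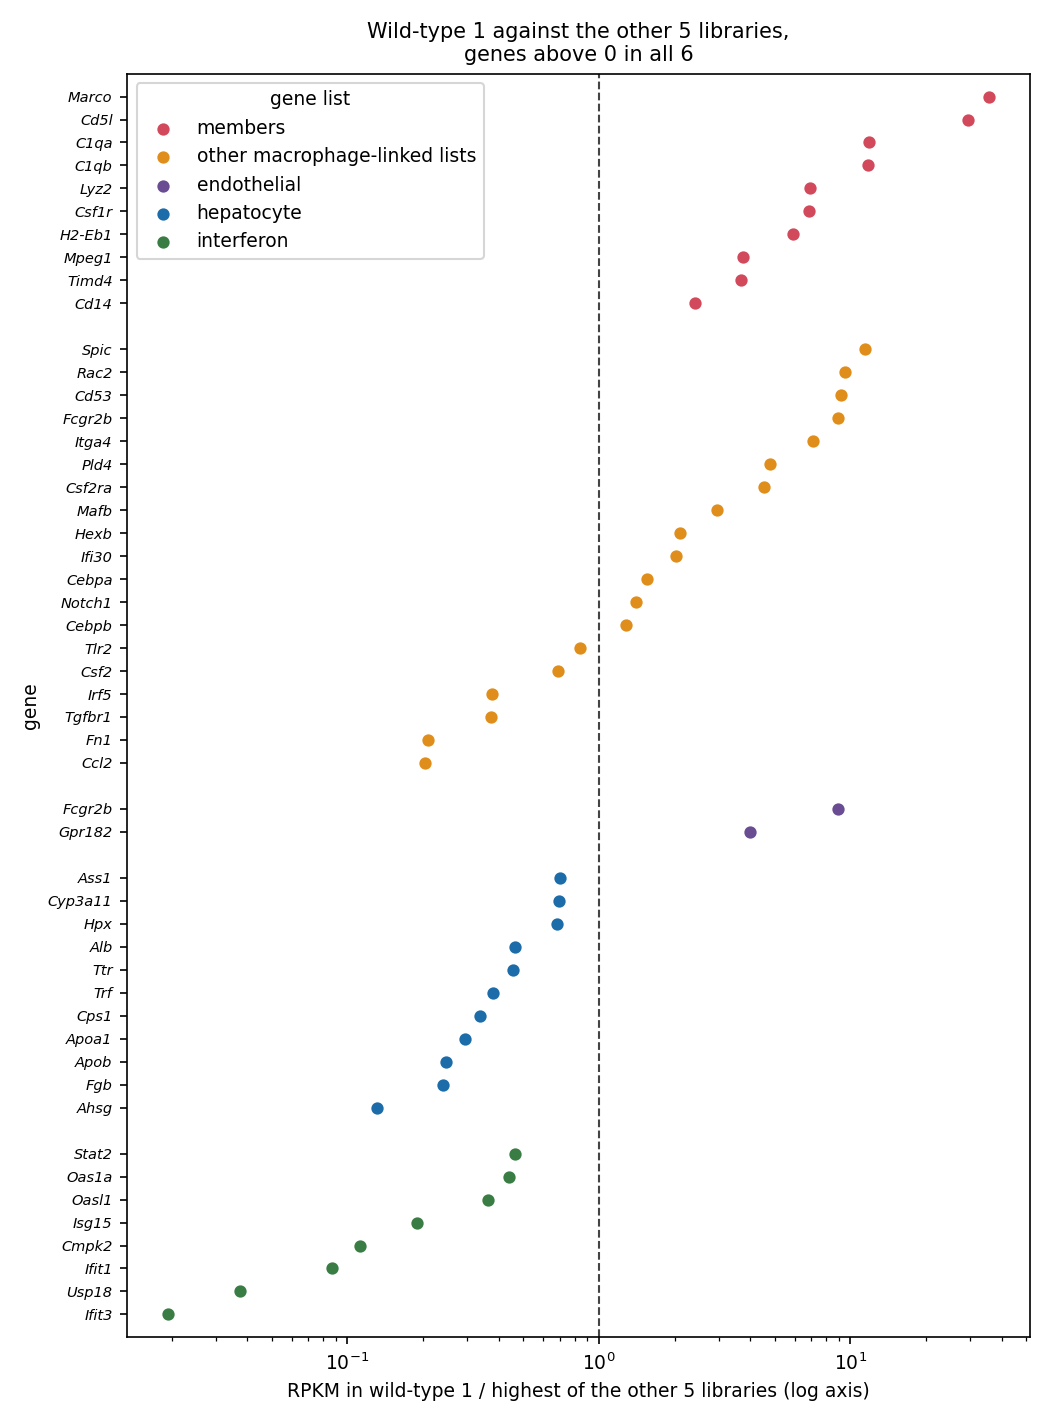
Ratio of the RPKM in wild-type 1 to the highest of the other 5 libraries (log axis) for genes above 0 in all 6, by gene list, with a dashed line at a ratio of 1; Fcgr2b is in 2 lists. All 10 members lie right of the line, from 2.42 to 35.5, and all hepatocyte and interferon genes drawn lie left of it.

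Other lists were set beside the members. Limma called 0.789% of all 11021 tested genes at an adjusted p below 0.05, a share to set beside each list. Of 16 further genes linked to Kupffer cells, 8 passed the filter for the genotype test and 0 were called. Spic, a transcription factor of macrophages that handle haem iron, was the only one of them above 0 throughout, at 219, 157 and 295 reads in the knock-outs, against 3681, 304 and 205 in wild-type. That put wild-type 1 11.5-fold above the next library in RPKM. Slc40a1, the iron exporter ferroportin, had 0, 4368 and 2382 reads in the knock-outs, against 5328, 2184 and 2312 in wild-type. Axl, a receptor for apoptotic cells, had 4190 reads in wild-type 1, 348 in knock-out 3, 298 in wild-type 3 and 0 elsewhere. Il18bp, the decoy that binds interleukin 18, had 0, 476 and 560 reads in the knock-outs, against 1962, 1420 and 656 in wild-type.

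Of 32 listed phagocyte genes, 31 were in the files, 20 were tested and 0 were called. Cybb, the catalytic subunit of the phagocyte NADPH oxidase, had 31464 reads in wild-type 1, 1112 in knock-out 2, 2128 in wild-type 2 and 0 in the other 3. Sirpa, the receptor for the CD47 signal of healthy cells, had 17139 reads in wild-type 1 and 1044 in wild-type 2 and none elsewhere. Lgmn, a lysosomal protease, had 2876, 0 and 3166 reads in the knock-outs, against 12688, 3292 and 0 in wild-type. Grn, the lysosomal protein progranulin, was listed at 0 in wild-type 1 and had 16352 to 25121 reads in the others, at a locus with 10 transcripts. Of the 19 genes of the macrophage-linked lists above 0 in all 6 libraries, 10 were over 2-fold and 7 over 4-fold above the next library in wild-type 1.

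Of 7 further class II genes, 5 were at 0 in all 6 libraries, H2-DMa and H2-DMb1 among them, and 0 were called. Over the series, 15661 of 48353 genes were above 0 in any library, so most were at 0 throughout. Ifi30, a reductase that prepares antigens for class II loading, had 414, 570 and 568 reads in the knock-outs, against 1252, 354 and 534 in wild-type, a 2.02-fold gap in RPKM. Ciita, the master regulator of class II genes, had at most 4 reads in any library.

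Of 16 monocyte and recruited macrophage genes, 12 were at 0 in all 6 and 0 were called. All 16 lie at loci with 2 or more transcripts, and most genes of the series were at 0 throughout. Itga4, an integrin chain of circulating leukocytes, had 74, 62 and 124 reads in the knock-outs, against 958, 100 and 114 in wild-type, and wild-type 1 was 7.10-fold above the next library in RPKM. Fn1, a plasma protein that hepatocytes make, was lowest in wild-type 1, at 0.21 of the highest other library. Gpnmb, a gene of lipid-laden macrophages, had 426 reads in wild-type 3 and none elsewhere. Cd9, a tetraspanin of many cell types, had 1747 reads in wild-type 1 and 0 to 2836 in the others.

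Among 22 growth factors, receptors and transcription factors that control macrophages, 15 were tested. Limma called 1, with higher values in knock-out, beside 0.372% of all tested genes. That was Csf1, the ligand of Csf1r, with 15060, 11036 and 6510 reads in the knock-outs, while all 3 wild-type libraries were at 0 (adjusted p = 0.0149). It lies at a locus with 7 transcripts, and 0 of the 5538 tested genes above 0 in all 6 libraries were called, so the call rests on listed zeros. Ccl2, the ligand of Ccr2, had 32819, 28502 and 18056 reads in the knock-outs, against 8272, 27826 and 16306 in wild-type, lowest in wild-type 1. Tgfbr1, a receptor for the TGF-beta that shapes Kupffer cells, had 4554 to 8094 reads in the knock-outs, against 5370, 9248 and 9354 in wild-type. Irf5, a transcription factor of inflammatory macrophages, had 2248 to 5212 reads in the knock-outs, against 1980, 6484 and 2336 in wild-type.

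Markers of some other cells moved with the members and those of others did not. Hepatocyte genes were lowest in wild-type 1 for 8 of the 11 read in all libraries, a count with no share of all genes beside it. The summed reads of the hepatocyte list were 37675 RPM there and 42873 to 79174 elsewhere. Alb, the albumin gene, was not lowest there, at 2.49% of all reads against 2.23% in wild-type 3. Tdo2, at a locus with 4 transcripts, was highest in wild-type 1, with 13926 reads against at most 4068 elsewhere. Endothelial genes, of the cells that line the sinusoids, summed to 325 RPM in wild-type 1 and to 9.42 to 91.3 elsewhere, with 8 of 16 listed at 0 in all 6. Cdh5, a junction protein of endothelial cells, had 2154 reads in wild-type 1 alone. Stab1, an endothelial and macrophage scavenger receptor, had 1798, 0 and 1808 reads in the knock-outs, against 3606, 1778 and 0 in wild-type. In RPKM Stab1 was highest in wild-type 2, at 197 against 86.4 in wild-type 1. Dendritic cell genes summed to 37.5 RPM in wild-type 1 and to 0.0723 to 7.10 elsewhere, with 4 of 9 at 0 in all 6. Fscn1, an actin-bundling protein of mature dendritic cells, had 582 reads in wild-type 1 alone, and Zbtb46, a dendritic cell transcription factor, had 174 there and 180 in knock-out 3. Genes of red cells and platelets summed to 7.57 RPM in wild-type 1 and to 0 to 1.99 elsewhere. Mki67, a gene of dividing cells chosen after its values were seen, had 636 reads in wild-type 1 and 58 to 88 elsewhere, a 7.16-fold gap in RPKM. The proliferation list as a whole summed lowest there, at 30.5 RPM against 55.9 to 86.7 elsewhere. Pcna, at a locus with 5 transcripts, was listed at 0 in wild-type 1 and had 1334 to 2066 reads elsewhere. The low sum rests on that listed 0. Genes of T and NK cells were at 0 in all 6 for 14 of 15, of B and plasma cells for 8 of 10, of neutrophils for 10 of 11 and of stellate cells for 11 of 12. Over the series most genes were at 0 throughout, with 15661 of 48353 above 0 in any library. Cd3d, Elane and Lrat, defining genes of T cells, neutrophils and stellate cells at loci with 1 transcript, were at 0 throughout. Other genes of these 3 lists at such loci had a few reads. Cd3e had 2 in knock-out 1, Mmp8 had 6 in wild-type 1, and Acta2 had 2 each in knock-out 3 and wild-type 1. The part of endothelial, dendritic, blood or hepatocyte RNA in the members' values was not tested.

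In the genotype comparison, 0 members passed. The 28 members whose 6 libraries averaged 1 RPKM or more were tested with limma on log2(RPKM + 1), with p adjusted over all 11021 tested genes, and 0 were called at an adjusted p below 0.05. Over all those genes 0.789% were called, 0.417% lower and 0.372% higher in knock-out. At an unadjusted p below 0.05, 0 members and 1.89% of all tested genes passed, the smallest member p being 0.0918 for Cd68 in limma. The members' limma adjusted p ran from 0.941 to 1.00. The estimate was negative, lower in knock-out, for 27 of the 28, and positive for Ctss, with a median of -1.50 beside -0.01 over all tested genes. Of the 28, 14 passed the filter through wild-type 1 alone, which fixes their direction, so nothing is read from that count or that median. The median also takes in members with listed zeros.

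Of the 10 fully read members, 8 average 1 RPKM or more without wild-type 1 as well. Timd4 and H2-Eb1 do not, so their sign too was fixed by the filter. For the 8, the difference of knock-out minus wild-type on the log2(RPKM + 1) scale ran from -1.93 for Marco to -0.63 for Cd14, with a median of -1.30. Marco's limma 95% interval reached from -6.09 to 2.24, around group means of 47.2 ± 12.2 RPKM for knock-out against 733 ± 1181 for wild-type (SD, n = 3 each). The interval of C1qa was -4.94 to 1.99 and that of Cd14, the narrowest of the 10, -1.87 to 0.61. The groups did not overlap for 0 of the 10, against 6.97% of the 6920 genes above 0 in all libraries.

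Without wild-type 1 the differences of the fully read members lay around 0. For the same 8 the median was -0.07, beside 0.02 over all genes so tested, with 5 negative and 3 positive, from -0.40 for Mpeg1 to 0.33 for Lyz2. Limma called 0 of the 10, with 0 at an unadjusted p below 0.05 and a smallest adjusted p of 1.00. Marco was then at -0.15 (95% interval -0.85 to 0.55) and C1qa at -0.07 (-1.29 to 1.15). Cd14, at -0.13 (-0.61 to 0.36), was bounded more closely than Lyz2, at 0.33 (-1.93 to 2.59). These intervals rest on 3 libraries against 2.

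**Figure D4:**
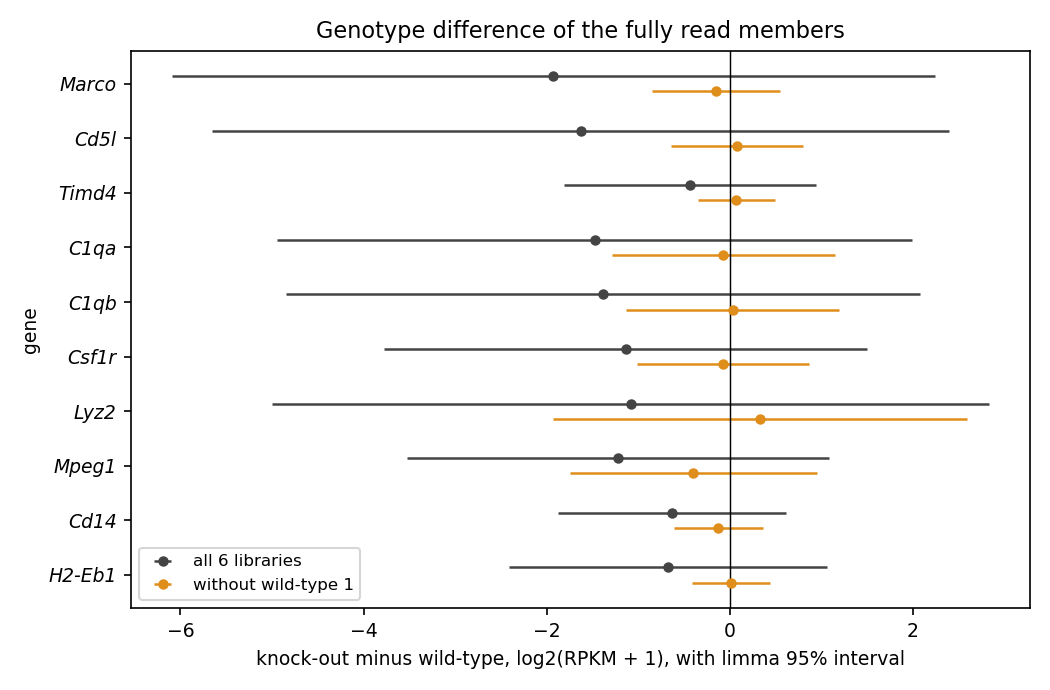
Knock-out minus wild-type difference on the log2(RPKM + 1) scale for the 10 members above 0 in all libraries, with limma 95% intervals, from all 6 libraries (grey) and without wild-type 1 (orange). Every interval crosses 0, and the point of Marco moves from -1.93 to -0.15.

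The other 5 libraries also differed among themselves, and not by genotype group. For 8 of the 10 fully read members, all but Mpeg1 and Cd14, knock-out 3 and wild-type 3 were the 2 highest of the 5, against 23.5% of the 6920 genes. For Mpeg1 and Cd14 they were knock-out 1 and wild-type 2, against 9.03%. Among these 5 libraries the highest value exceeded the lowest by 1.42-fold for Cd14 to 7.53-fold for Lyz2, with a median of 2.00 over the 10 members. Knock-out 2 was the lowest of the 5 for Cd5l, Marco, C1qb and Mpeg1. The libraries high in Mpeg1 and Cd14 were also those high in interferon-stimulated genes, whose summed reads were 7618 RPM in knock-out 1, 8329 in wild-type 2 and 999 to 1634 in the other 4. The part of that state in the 2 members was not tested.

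**Figure D5:**
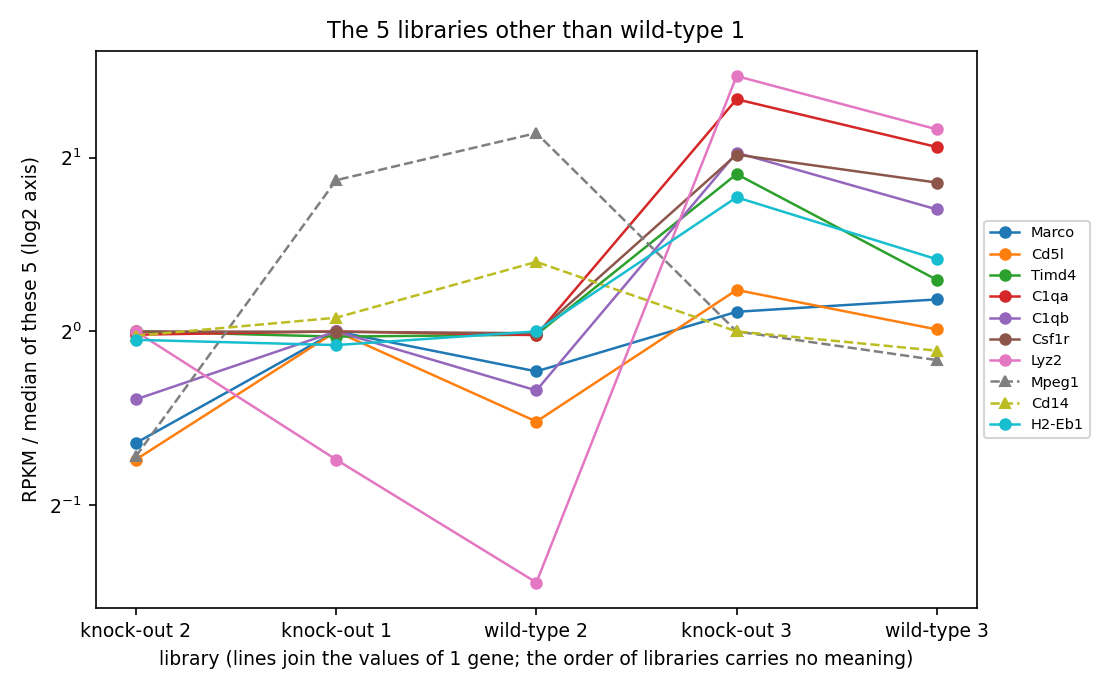
RPKM of the 10 fully read members relative to each gene's median over the 5 libraries other than wild-type 1 (log2 axis), with lines joining the values of 1 gene; the order of libraries carries no meaning. The 8 members drawn with circles are highest in knock-out 3 and wild-type 3, and Mpeg1 and Cd14, drawn with triangles, in knock-out 1 and wild-type 2.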

How the data were processed

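Polyadenylated RNA of 3 Bim knock-out and 3 wild-type hepatocyte samples was sequenced single-end, per the labels, which also gave groups and replicate numbers. The submitters' processing notes name TopHat2 (version 2) and the build GRCm38, also called mm10. For the division of reads over transcripts, the tool and any use of strand were not given in the sources used here, so overlapping genes may share reads. Per the file contents, the authors deposited 1 annotation file per library, in which 118492 transcripts each have an estimated count of reads and an RPKM. Read totals of 99.46% to 99.66% of loci were whole (within 0.001), and 92.28% to 92.98% of these were even.

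Both values were summed over transcripts per gene, so the RPKM of a gene with several transcripts depends on which of them took the reads. Symbols matched 47993 genes and left 360 unmatched. Genes averaging 1 RPKM or more were tested on log2(RPKM + 1), which understates changes of low genes, with limma 3.58.1 (R 4.3.3, mean-variance trend, two-sided, no covariate, Benjamini-Hochberg adjustment over all tested genes). No count model was used, because the read values are estimates with many zeros. The fit was tested on simulated data. Tables and figures used Python 3.11.15 with pandas 2.3.3, numpy 2.4.6 and matplotlib 3.10.9.

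The members, the gene lists and the alternatives were chosen with earlier results of these data known. The named genes were all 36 members, Bcl2l11, and in other lists each gene past the test. Up to 4 genes with most reads were named in lists of macrophage biology, and 2 in the endothelial and dendritic lists. In the remaining lists only Alb, Tdo2, Cd3d, Cd3e, Acta2, Mmp8, Elane, Lrat, Mki67 and Pcna were named, and the biliary list is not described. Outside the lists, the named genes were the 10 with the largest ratio of the library highest in member reads to the next. Alb, Tdo2, Cd3e, Acta2, Elane, Lrat, Mki67 and Pcna were named after their values were seen.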

Additional observations from a re-analysis of the deposited data

How the results depend on the processing

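Of the 36 members 0 were called under every alternative run: a pseudocount of 0.1, no filter or a mean of at least 5 RPKM, 3 other scalings, the largest transcript only, no variance trend, voom, an adjusted p below 0.1, genes above 0 in all libraries, zeros taken as missing, loci with 1 transcript, the replicate block and each library left out. Same-numbered libraries of the 2 groups did not deviate together (correlations -0.16, -0.05 and -0.01 over 5538 genes). Such correlations, of deviations from means of 3 libraries, cannot show whether the samples were paired. Each library correlated best with another number (knock-out 1 with wild-type 2 at 0.31, 3 with 1 at 0.22 and 2 with 3 at 0.15). With the replicate block, 0 genes of the series were called by limma in place of 87 (198 at an unadjusted p below 0.05). Leaving out each library gave 171 to 198 called genes. Limma called 0 among genes above 0 in all 6 libraries (130 at an unadjusted p below 0.05), with zeros taken as missing (298) and at loci with 1 transcript (46). An alternative chosen after seeing the data, genes above 0 in all 6 libraries without wild-type 1, also called 0 (130). It turned the sign for Timd4 (0.0704), Cd5l (0.0786), C1qb (0.0302), Lyz2 (0.33) and H2-Eb1 (0.0126). Over left-out libraries, Cd5l ran from -2.59 to 0.0786, C1qb from -2.32 to 0.0302 and Lyz2 from -2.38 to 0.33, each upper value being without wild-type 1. The other 186 of 194 recomputed member differences kept their sign. Nothing is read from that count, since most of those settings keep wild-type 1, whose high values make the differences negative. All 8 reversals came without wild-type 1. The members' median of -1.50 ran from -2.61 to -0.08 over left-out libraries. The -0.08 was without wild-type 1, where 14 members are tested in place of 28. It was -3.09 with voom and -2.12 with a pseudocount of 0.1. Nothing is read from these medians, since wild-type 1 alone carried members past the filter. Knock-out minus wild-type in summed member reads was -2543 RPM for all members and -1480 for those above 0 in all 6 libraries. For all members without wild-type 1 it was -23.2. Depth limits the lowest members: Timd4 and H2-Eb1 had 14 to 40 reads in 5 libraries, and Cx3cr1 at most 20.8.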

Other observations

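Outside all lists, the 10 genes above 0 in every library that stood farthest above the next library in wild-type 1 were Cxcl13 (19.0-fold in RPKM), Cd300e (18.6), Ccl4 (18.3), Ccl3 (16.8), Myct1 (15.6), Wfdc17 (15.2), Cd300ld (14.7), Marcksl1 (14.5), Id2 (14.3) and Csf3 (13.8). All lie at loci with 1 transcript, so listed zeros do not enter. They were ranked by that ratio, so its size is no test. Cxcl13, a chemokine that attracts B cells, had 16, 18 and 74 reads in the knock-outs, against 1528, 24 and 58 in wild-type, and knock-out 3 and wild-type 3 were the next highest libraries, as for 8 of the members. Ccl3 and Ccl4, chemokines made by activated macrophages, had 9834 and 6458 reads in wild-type 1. In the other 5 libraries Ccl3 had 372 to 566 reads and Ccl4 198 to 368, with knock-out 1 and wild-type 2 the highest. Csf3, the growth factor of neutrophils, had 292 reads in wild-type 1 and 4 to 20 elsewhere. Of the 11 neutrophil genes 10 were at 0 in all 6 libraries, and Mmp8 had 6 reads in wild-type 1 and 0 elsewhere. Id2, a transcriptional regulator of lymphoid and dendritic cells, had 2128 reads in wild-type 1 and 92 to 154 elsewhere.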
